A study of Mus musculus with 6 samples.

Results

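The 10 genes described here encode the elastic fiber and its assembly proteins: Eln, Fbn1, Fbn2, Fbln5, Efemp1, Efemp2, Lox, Loxl1, Mfap4 and Emilin1. They were chosen by name as a gene family, with earlier results of these data known. All 10 were found among the 54232 genes of the deposited count table and passed the filter on low counts. RNA-seq libraries were made from primary oviductal smooth muscle cells of 8 to 12 weeks old mice on day 2 of pregnancy, as 3 WT libraries and 3 libraries in which Pbrm1 had been conditionally deleted (Pbrm1 cKO). The protein of Pbrm1 belongs to a SWI/SNF remodeler of chromatin, and the comparison asks which transcripts differ when it is lost. The cells were released from minced oviduct by enzymes, filtered, plated in serum for 4 h and kept for another 2 h in fresh medium before RNA was taken.

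In the study the deletion was driven by a cre at the progesterone receptor gene, so that it is not limited to muscle. The labels call the controls WT and give no strain, while a legend of the study on RNA-seq of these cells names them Pbrm1 fl/fl, mice with floxed alleles and no deletion. The study speaks of biological replicates for these cells but the number of animals behind each library is not given, so that p-values measure the spread between these libraries, which may be technical in part. Libraries held between 15390818 and 18947947 counts. Pbrm1 itself (chromosome 14) was at 170, 183 and 172 CPM (counts scaled to library size) in WT replicates 1, 2 and 3 and at 43.5, 50.7 and 42.7 CPM in cKO replicates 1, 2 and 3, lower in every library labelled cKO.

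Elastic fibers let tissue recoil after stretch. Tropoelastin is laid down on a scaffold of fibrillin microfibrils, guided by fibulins and other glycoproteins, and is then crosslinked by copper-dependent lysyl oxidases into an insoluble core. In organs that stretch, such as arteries, lung and the reproductive tract, smooth muscle cells and fibroblasts both make these proteins.

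Of the 10 genes, 6 were higher in Pbrm1 cKO cells (Eln, Emilin1, Mfap4, Loxl1, Efemp2 and Fbln5), 2 were lower (Lox and Efemp1), and the 2 fibrillin genes did not pass the threshold. Eln changed most, by 2.12-fold upward. For each gene called, every cKO library lay on the same side of every WT library. A call here is an edgeR adjusted p-value under 0.05, and 43.7% of the 15376 genes tested were called between these groups (21.9% higher and 21.8% lower). The CPM of the groups did not overlap for 8 of the 10 members and for 53.5% of all tested genes (26.6% higher and 26.9% lower in cKO). The members' median log2 fold change was 0.379, against 0.0016 over all tested genes. In bulk RNA, fewer cells of a type and less RNA per cell cannot be told apart, and this holds for each difference below.

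**Figure D1:**
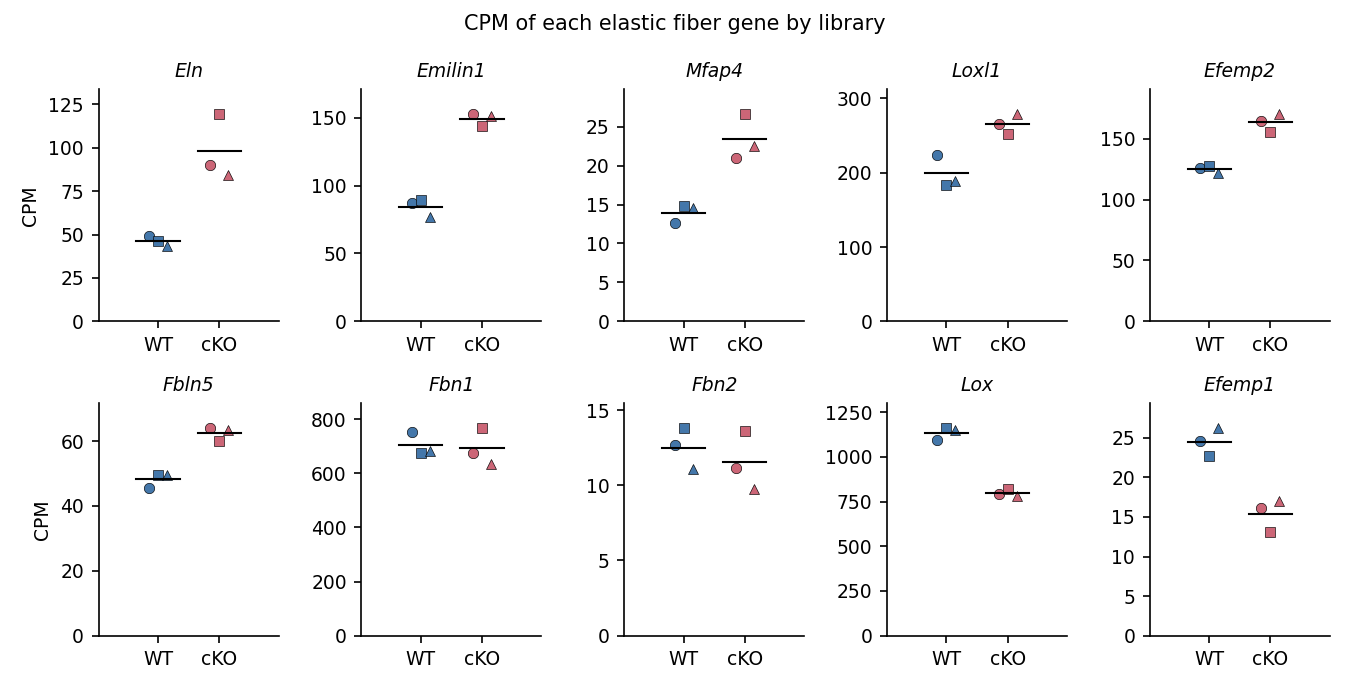
CPM of each elastic fiber gene (y axis, from 0) in the 3 WT libraries (blue) and the 3 Pbrm1 cKO libraries (red), where circles, squares and triangles are replicates 1, 2 and 3, and bars are group means. The groups are apart for 8 genes and overlap for Fbn1 and Fbn2.

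Eln (ENSMUSG00000029675.12, GRCm38 chromosome 5 from 134702593 to 134747323 on the minus strand) encodes tropoelastin. It was at 49.1, 46.2 and 43.3 CPM in WT replicates 1, 2 and 3 and at 89.9, 119 and 84.1 CPM in cKO replicates 1, 2 and 3. All 3 cKO libraries lay well above WT, and cKO replicate 2 was the highest. The WT mean was 46.2 ± 2.89 CPM and the cKO mean 97.8 ± 18.97 CPM (SD, n = 3). This was a log2 fold change of 1.09 ± 0.11 (SE, adjusted p = 2.7e-06 by edgeR), with a 95% interval from 1.81-fold to 2.48-fold. Of all tested genes, 5.51% changed by more.

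The fibrillins form the microfibrils on which elastin is laid down. Fbn1 (ENSMUSG00000027204.13, chromosome 2 from 125300594 to 125507993 on the minus strand) was at 752, 675 and 684 CPM in WT and at 675, 766 and 634 CPM in cKO replicates 1, 2 and 3. The groups overlapped, with the highest value in a cKO library and the lowest in another. The log2 fold change of -0.02 ± 0.065 (SE) did not pass (edgeR adjusted p = 0.789), and its 95% interval ran from 0.892-fold to 1.08-fold of WT. Fbn2 (ENSMUSG00000024598.8, chromosome 18 from 58008623 to 58209926 on the minus strand) is known mostly from embryonic tissue. By group mean CPM and per exon length it was the least abundant member, though Mfap4 was also at 12.6 CPM in WT replicate 1. Fbn2 was at 12.6, 13.8 and 11.1 CPM in WT and 11.1, 13.6 and 9.78 CPM in cKO. These groups also overlapped (log2 fold change -0.11, SE of 0.12, adjusted p = 0.498 by edgeR). With 152 to 258 counts per library its interval was wider, from 0.768-fold to 1.11-fold.

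The 3 fibulin-family members did not move together. Fibulins are secreted glycoproteins with calcium-binding EGF-like repeats. Of these, fibulin-4 and fibulin-5 bind tropoelastin and are needed for elastic fibers, while fibulin-3 is a close relative of both. Fbln5, the gene of fibulin-5 (ENSMUSG00000021186.9, chromosome 12 from 101746565 to 101819055 on the minus strand), was at 45.7, 49.4 and 49.5 CPM in WT and at 64.0, 59.9 and 63.4 CPM in cKO. The cKO libraries were all higher, by a log2 fold change of 0.37 ± 0.056 (SE, edgeR adjusted p = 0.000123). Efemp2, the gene of fibulin-4 (ENSMUSG00000024909.14, chromosome 19 from 5473973 to 5481853 on the plus strand), was at 126, 128 and 122 CPM in WT and at 165, 156 and 170.3 CPM in cKO. Its rise was of nearly the same size, with a log2 fold change of 0.39 ± 0.048 (SE, edgeR adjusted p = 2.3e-05). Efemp1, the gene of fibulin-3 (ENSMUSG00000020467.15, chromosome 11 from 28853204 to 28926743 on the plus strand), was at 24.6, 22.7 and 26.2 CPM in WT and at 16.1, 13.1 and 16.985 CPM in cKO. It went the other way from its relatives, to 62.9% of WT (log2 fold change -0.67, SE of 0.098, adjusted p = 9.6e-05 by edgeR).

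The sequences upstream of these 3 genes are shown because the genes are close relatives and differed in direction. Each is the 250 bases before a RefSeq transcript start (GRCm38.p6), read 5′ to 3′ on the strand of the gene, with GC boxes (GGGCGG on either strand) in capitals. They lie at chr12:101819120-101819369 (minus strand) for Fbln5, chr19:5473696-5473945 (plus strand) for Efemp2 and chr11:28852955-28853204 (plus strand) for Efemp1.
Fbln5: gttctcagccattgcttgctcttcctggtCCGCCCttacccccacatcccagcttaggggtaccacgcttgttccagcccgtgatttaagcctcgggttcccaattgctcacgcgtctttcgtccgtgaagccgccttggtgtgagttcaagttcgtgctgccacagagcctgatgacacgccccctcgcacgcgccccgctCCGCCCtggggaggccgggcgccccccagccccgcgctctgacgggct
Efemp2: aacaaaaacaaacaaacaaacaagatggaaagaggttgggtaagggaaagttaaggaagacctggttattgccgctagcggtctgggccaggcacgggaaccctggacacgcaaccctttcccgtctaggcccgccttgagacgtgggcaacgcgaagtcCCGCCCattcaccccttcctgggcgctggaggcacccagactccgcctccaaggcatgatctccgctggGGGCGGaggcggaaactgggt
Efemp1: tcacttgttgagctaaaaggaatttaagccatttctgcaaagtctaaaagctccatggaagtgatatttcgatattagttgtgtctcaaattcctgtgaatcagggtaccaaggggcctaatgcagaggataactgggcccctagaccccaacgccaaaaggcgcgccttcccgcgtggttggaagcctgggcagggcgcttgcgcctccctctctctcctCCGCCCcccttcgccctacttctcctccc

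The windows of Fbln5 and Efemp2 held 2 GC boxes each and that of Efemp1 held 1, where 32.7% of 32841 upstream windows of this length held any. GC content was 65.2%, 59.2% and 53.6% in Fbln5, Efemp2 and Efemp1, against a median of 52.4% over all windows. TGANTCA, a looser pattern than the AP-1 site because it allows any base in the middle, was matched once, in Efemp1. That match read TGAATCA, and 6.8% of all windows held the loose pattern. TATAAA was in none of the 3 and in 12.4% of all windows. GGAATG, the TEAD site, was in none of the 3 and in 12.6% of all windows. The SMAD palindrome GTCTAGAC (0.2% of all windows) and the CArG box (1.5%) were not found on either strand. These are letter matches and were not linked to the differences in expression. The table of upstream sequences held entries for 5 of the 10 genes.

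The genes of the crosslinking enzymes moved in opposite directions. Lysyl oxidase, encoded by Lox, oxidizes lysines of collagen and elastin so that they crosslink, and Loxl1 encodes the related enzyme that is most closely tied to elastin. Lox (ENSMUSG00000024529.13, chromosome 18 from 52516069 to 52529867 on the minus strand) was at 1094, 1161 and 1149 CPM in WT and at 793, 818 and 779 CPM in cKO. All cKO libraries were lower, with means of 1135 ± 35.4 CPM (WT) and 797 ± 19.8 CPM (cKO, SD, n = 3). Lox thus stood at 70.2% of WT (log2 fold change -0.51, SE of 0.044, adjusted p = 8.6e-07 by edgeR). Loxl1 (ENSMUSG00000032334.10, chromosome 9 from 58287738 to 58313186 on the minus strand) was at 224, 183 and 189 CPM in WT and at 266, 252 and 279 CPM in cKO. WT replicate 1 stood above the other WT libraries but below all cKO libraries (log2 fold change 0.42 ± 0.068 SE, edgeR adjusted p = 0.00025).

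Ratios between members were taken within each library, as counts per kilobase of exon. Lox stood at 3.34, 4.34 and 4.16 times Loxl1 in WT replicates 1, 2 and 3 and at 2.04, 2.23 and 1.91 times Loxl1 in cKO replicates 1, 2 and 3. The mean ratio was 3.95 ± 0.534 in WT and 2.06 ± 0.158 in cKO (SD, n = 3), with no overlap. Eln to Fbn1, core to scaffold, went from 0.0984 ± 0.00382 to 0.211 ± 0.0198, again with no overlap. With transcript lengths in place of exon lengths, Eln to Fbn1 was 0.204 ± 0.00792 in WT and 0.437 ± 0.0411 in cKO. The exact permutation test, two-sided, gave p = 0.1 for each, the smallest that 3 libraries against 3 allow. With 3 ratios compared, adjusted values cannot be lower. Fbn2 to Fbn1 was 0.0206 ± 0.00265 in WT and 0.0192 ± 0.00137 in cKO, with overlapping libraries (exact permutation p = 0.6).

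**Figure D2:**
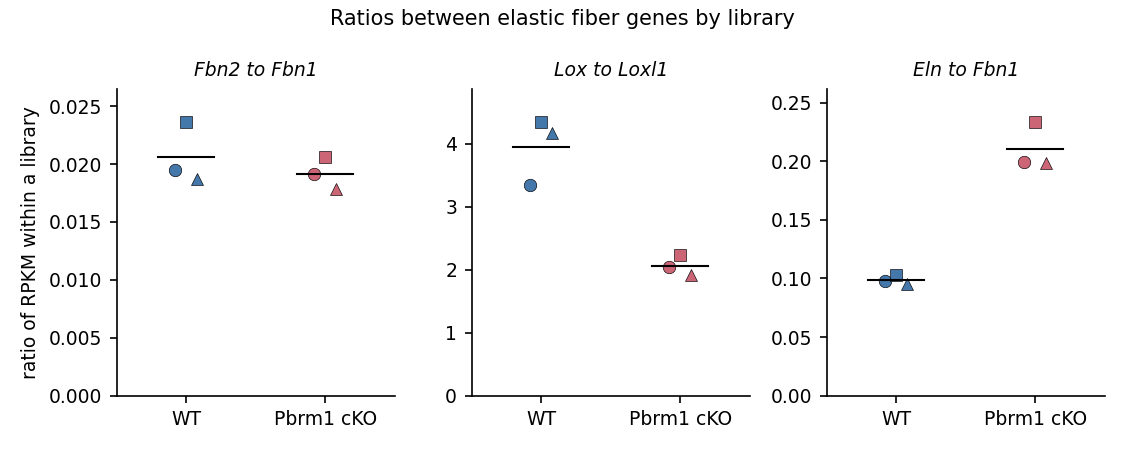
Ratios of RPKM within each library (y axes, from 0) for Fbn2 to Fbn1, Lox to Loxl1 and Eln to Fbn1, where circles, squares and triangles are replicates 1, 2 and 3, blue is WT, red is Pbrm1 cKO and bars are group means. Lox to Loxl1 falls from a mean of 3.95 to 2.06 and Eln to Fbn1 rises from 0.0984 to 0.211, while Fbn2 to Fbn1 overlaps.

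The genes of glycoproteins at the edge of the fiber, Emilin1 and Mfap4, were both higher. Emilin1 encodes a glycoprotein of the boundary between elastin and microfibrils. Emilin1 (ENSMUSG00000029163.9, chromosome 5 from 30913402 to 30921277 on the plus strand) was at 87.2, 89.5 and 76.6 CPM in WT and at 153, 144 and 151 CPM in cKO. The replicates were close in cKO, and Emilin1 rose by 0.82 ± 0.058 on the log2 scale (SE, edgeR adjusted p = 1.7e-07). Mfap4 encodes a microfibril-associated glycoprotein that binds elastin and fibrillin. Mfap4 (ENSMUSG00000042436.12, chromosome 11 from 61485431 to 61488900 on the plus strand) was at 12.6, 14.8 and 14.6 CPM in WT and at 21.03, 26.6 and 22.5 CPM in cKO. All cKO libraries were higher, by a log2 fold change of 0.74 ± 0.10 (SE, edgeR adjusted p = 5.4e-05).

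**Figure D3:**
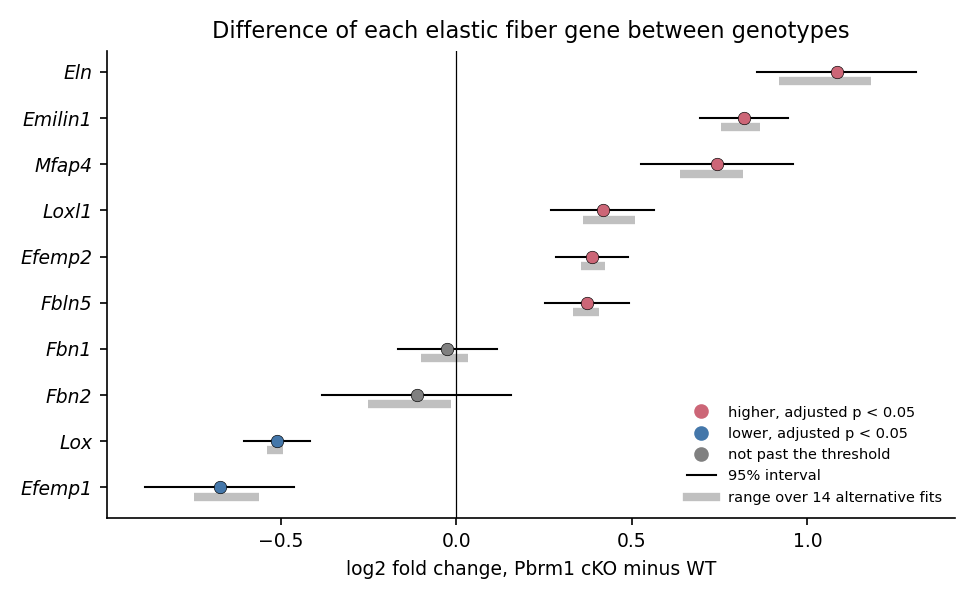
Log2 fold change of each elastic fiber gene (x axis, Pbrm1 cKO minus WT) with its 95% interval (black) and the range over 14 alternative fits (grey), where red is higher, blue lower and grey not past an adjusted p-value of 0.05. Eln is highest at 1.09 and Efemp1 lowest at -0.67, and the intervals of Fbn1 and Fbn2 cross 0.

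Levels of different genes are compared below as RPKM, the CPM divided by exon length in kilobases. That length counts every exon of a gene and depends on its annotated transcripts, most of all for Eln, with 8098 bases of exons against 3853 in its longest coding transcript. In WT the order was led by Lox at 236 ± 7.37 RPKM (SD, n = 3), which only 0.676% of tested genes exceeded. Loxl1 and Fbn1 followed at 60.4 ± 6.76 and 58.0 ± 3.49 RPKM, and their libraries overlapped. Efemp2 was at 47.2 ± 1.19 RPKM and Emilin1 at 17.1 ± 1.39 RPKM. Efemp1 came next at 12.0 ± 0.875 RPKM. Mfap4 and Fbln5, at 7.27 ± 0.627 and 6.97 ± 0.314 RPKM, overlapped with each other. Eln was ninth at 5.71 ± 0.357 RPKM, above Fbn2 at 1.19 ± 0.131 RPKM. With the longest coding transcript as length, Eln instead came to 11.99 ± 0.75 per kilobase, overlapping with Efemp1 (12.03 ± 0.876) and above Fbln5 (8.27 ± 0.372) and Mfap4 (8.12 ± 0.70). With either length, transcripts of both crosslinking enzymes were more abundant than that of elastin, their substrate.

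In cKO the order changed in the middle. Lox remained first at 166 ± 4.12 RPKM and Loxl1 second at 80.6 ± 4.16 RPKM, now apart from Fbn1. Efemp2 (61.7 ± 2.79 RPKM) stood beside Fbn1 (57.0 ± 5.59 RPKM), with overlapping libraries. Eln, at 12.1 ± 2.34 RPKM, overlapped with Mfap4 at 12.2 ± 1.51 RPKM and lay above Fbln5 (9.03 ± 0.32 RPKM) and Efemp1 (7.56 ± 1.00 RPKM). By transcript length Eln (25.4 ± 4.92 per kilobase) lay above Mfap4 (13.6 ± 1.69) with no overlap. Of the RPKM summed over the 10 genes, Lox took 52.2% ± 1.96 in WT and 37.9% ± 0.583 in cKO, while Emilin1 went from 3.78% ± 0.286 to 6.92% ± 0.30 and Eln from 1.26% ± 0.069 to 2.76% ± 0.504 (SD, n = 3). By transcript length the share of Eln was 2.55% ± 0.138 in WT and 5.44% ± 0.967 in cKO. The summed CPM of the 10 genes was 2392 ± 33 in WT and 2277 ± 81.5 in cKO, with overlapping libraries.

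**Figure D4:**
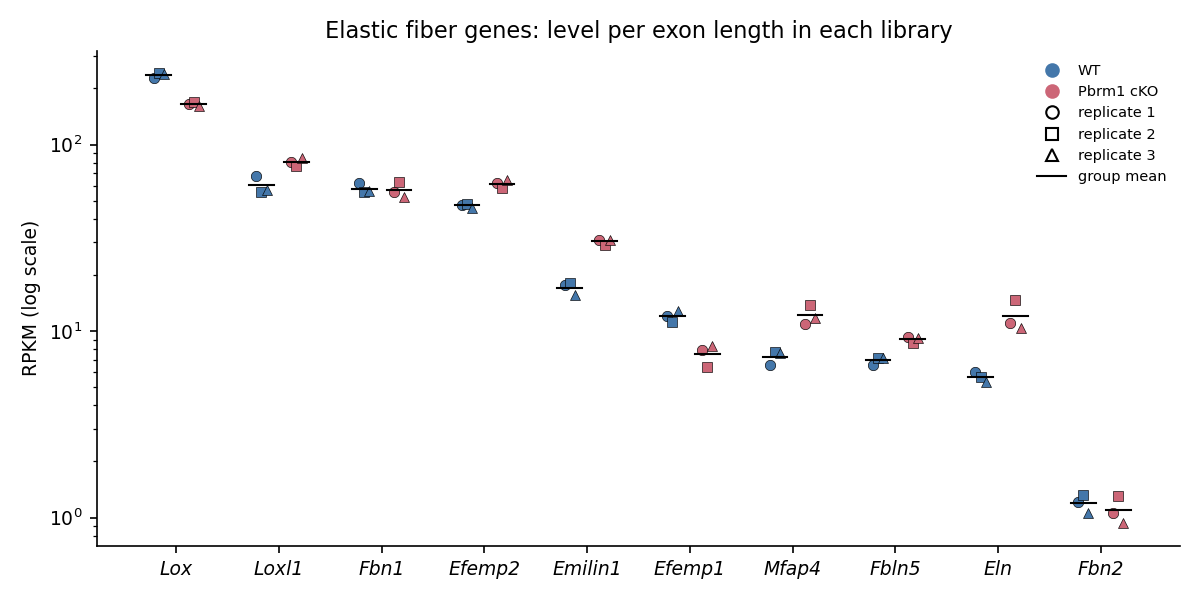
Level per exon length (RPKM, log scale) of the 10 elastic fiber genes in each library, ordered by the WT mean, where blue is WT, red is Pbrm1 cKO, marker shapes are replicates and bars are group means. Lox leads at 236 RPKM in WT and 166 in cKO, Fbn2 is last at 1.19 and 1.10, and Eln moves from 5.71 to 12.1 by exon length.

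Replicates differed most for Eln in cKO, with a coefficient of variation of 19.4%, and least for Lox in cKO (2.49%) and Efemp2 in WT (2.52%). In cKO replicate 2 each of the 10 members was either the highest of its group (Eln, Fbn1, Fbn2, Lox and Mfap4) or the lowest (Fbln5, Efemp1, Efemp2, Loxl1 and Emilin1). Without that library the same 8 genes were called in the same directions. The log2 fold change of Eln was then 0.918, against 1.09 with all libraries.

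Other genes of the pathway, 46 in 8 lists, were examined beside the members. Of these, 42 were tested and 24 were called, 20 higher and 4 lower in cKO, with a median log2 fold change of 0.221. Over all tested genes 43.7% were called, 21.9% higher and 21.8% lower. Among microfibril-associated and latent TGF-beta binding proteins, 3 of 6 were higher: Mfap5 (log2 fold change 0.82), which binds fibrillin, Ltbp2 (0.50), and Ltbp1 (0.25), which tethers latent TGF-beta to microfibrils. Among other fibulins 3 of 4 were higher, namely Hmcn1 (1.27), Fbln1 (0.36) and Fbln2 (0.13). Hmcn1, the gene of hemicentin-1, rose from 2.38 ± 0.486 to 5.75 ± 0.384 CPM (SD, n = 3). Of the other lysyl oxidases, Loxl3 was lower (-0.22), while Loxl2 (0.01) and Loxl4 (-0.06) were not called. Emilin2 (0.29) and the multimerin genes Mmrn2 (0.48) and Mmrn1 (0.25) were higher, and Emilin3 did not pass the filter. The calls of Fbln2, Loxl3 and Mmrn1 were lost in 5, 6 and 7 of 14 alternative fits.

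ADAMTS and ADAMTS-like genes, several of which encode proteins that bind fibrillin-1, held the largest increase. Of 8 genes 7 were tested and 5 called, all higher, where 43.7% of all tested genes were called and 21.9% called higher. Adamtsl1 rose from 16.1 ± 1.44 to 51.4 ± 3.49 CPM, a log2 fold change of 1.68. Adamtsl4, which promotes microfibril formation, rose from 6.62 ± 0.467 to 15.6 ± 0.438 CPM (1.24, SD, n = 3). Thsd4 (0.44), also known as Adamtsl6, was higher, as was Adamtsl3 (0.95), whose libraries overlapped between the groups and whose call was lost in 4 of 14 alternative fits.

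Among 9 genes of processing, copper delivery and chaperoning, 8 were tested and 4 called, near the 43.7% of all tested genes. Tll1 and Bmp1 encode related proteases that release the propeptides of procollagen and of lysyl oxidase. Tll1 was at 36.9 ± 1.14 CPM in WT but 8.81 ± 1.79 CPM in cKO, a log2 fold change of -2.05. Bmp1 rose from 147 ± 6.71 to 191 ± 6.97 CPM (0.38, SD, n = 3). Fn1 (-0.33), the gene of fibronectin, a scaffold for microfibrils, was lower, and Pcolce (0.25), an enhancer of procollagen processing, was higher, with overlapping groups and a call lost in 3 of 14 alternative fits. The copper transporters Atp7a (0.14) and Slc31a1 (0.13), which supply or route the metal of lysyl oxidases, were not called. Of 9 elastin-degrading proteases 8 were tested and 5 called: Ctsl (0.86), Mmp12 (0.73), Mmp2 (0.46) and Ctss (0.41) were higher and Mmp9 was lower (-0.31). The groups overlapped for Mmp9, and its call was lost in 5 of 14 alternative fits. Ctsl, a lysosomal cathepsin, rose from 424 ± 12.98 to 772 ± 60.6 CPM (SD, n = 3). In the elastin receptor complex, Glb1 (0.07), Neu1 (0.19) and Ctsa (0.08), counted per gene and not per transcript form, did not pass. That is 0 of 3 by edgeR, DESeq2 and limma-voom alike, where 1 of 3 by edgeR, 0 of 3 by DESeq2 and 1 of 3 by limma-voom had an unadjusted p-value under 0.05. Neu1 passed with the replicate number as a block, and Neu1 and Ctsa passed without cKO replicate 2.

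**Figure D5:**
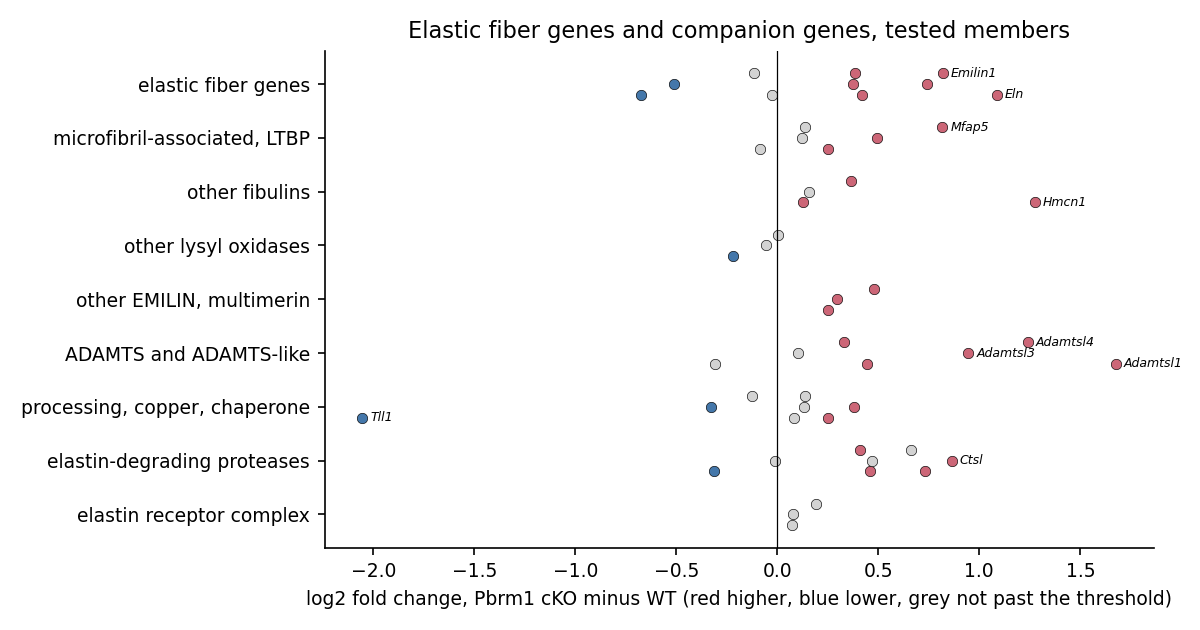
Log2 fold change (x axis, Pbrm1 cKO minus WT) of the 10 elastic fiber genes and of the tested companion genes by list, with names beyond 0.8 in size, where red is higher, blue lower and grey not past an adjusted p-value of 0.05. Adamtsl1 is highest at 1.68 and Tll1 lowest at -2.05.

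Markers of several cell types also differed between the groups. Of all tested genes 43.7% were called, 21.9% higher and 21.8% lower in cKO. Smooth muscle markers, the labelled cell type, summed to 3470 to 3542 CPM in WT and 4246 to 4737 CPM in cKO, with 5 of 8 higher and 1 lower. Fibroblast markers summed to 3523 to 4105 CPM in WT and 4795 to 5208 CPM in cKO, with 5 of 8 higher and 1 lower. Col1a1, the largest of them (means of 2612 CPM in WT and 2765 CPM in cKO), was not called. The median log2 fold change of the fibroblast list was 0.756. Leukocyte markers summed to 664 to 717 and 966 to 1044 CPM, with all 6 tested of 8 higher. Macrophages are a known source of Mmp12 and Ctss. Pericyte markers, at 19.9 to 20.7 and 37.4 to 45.1 CPM, were higher in all 4 tested of 5. Epithelial markers summed to 758 to 826 CPM in WT and 895 to 999 CPM in cKO (5 of 7 higher). Mesothelial markers summed to 282 to 286 and 326 to 357 CPM (1 higher and 2 lower of 5). The higher one was Krt19, with means of 125 CPM in WT and 216 CPM in cKO. Msln (54.6 and 30.8 CPM) and Lrrn4 (26.1 and 20.1 CPM) were lower, and the median log2 fold change of the mesothelial list was -0.0441. Endothelial markers summed to 355 to 378 and 302 to 312 CPM, with 2 higher and 1 lower of 7, near the share called of all tested genes. The lower one was Kdr, with means of 182 CPM in WT and 99.4 CPM in cKO. Vwf (4.35 and 14.2 CPM) and Egfl7 (22.7 and 31.0 CPM) were higher, and the median log2 fold change of the endothelial list was -0.0307. Cartilage and tendon markers summed to 9.78 to 12.2 and 15.3 to 17.9 CPM, with 1 of 3 tested higher. Tnmd was at 0 counts in all libraries, and no other marker was. The mitochondrial share of counts was 7.95%, 8.24% and 8.08% in WT replicates 1, 2 and 3 and 6.88%, 7.81% and 7.08% in cKO replicates 1, 2 and 3, lower in every cKO library. The part of these markers' cells, or of the mitochondrial share, in the differences of the elastic fiber genes and companion genes was not tested. This includes Mmp12 and Ctss.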

How the data were processed

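The authors deposited raw read counts per gene for 6 libraries. Per the file headers, these were made by featureCounts 1.6.4 from cutadapt-trimmed, aligned reads over GENCODE M18 exons, set for reverse-stranded libraries. The submitters' processing notes add HISAT2 and GRCm38.p5. CPM and RPKM (CPM per kilobase of the deposited exon length) were computed here. No 50-base stretch of the longest coding transcript of any of the 10 genes was shared with another gene on the same strand. Antisense sharing was largest for Fbn1, with 20.1% of its stretches in Gm9913. The antisense share was 4.80% for Efemp2, 2.76% for Eln, 2.39% for Mfap4 and 0.728% for Fbn2. Strand-specific counting keeps such genes apart.

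Symbols came from GENCODE M21 (99.7% of genes). Groups were compared by the two-sided quasi-likelihood test of edgeR 4.0.16 (R 4.3.3) after TMM normalization and filterByExpr, and p-values were adjusted by Benjamini-Hochberg over the 15376 genes tested. Standard errors came from the log2 fold change and its F statistic. Intervals cover the spread between libraries; 3 counts, the floor, correspond to 0.159 to 0.193 CPM and cover counting error only. No pair of replicates agreed within sampling noise.

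Members and lists were chosen with earlier results of these data known. The text names all members, Pbrm1 and, per companion list, up to 4 called genes with the largest change; genes not called, and Mmp9 and Gm9913, were added after their values were seen. Alternatives were DESeq2 1.42.0, limma-voom (3.58.1), other scalings and filters, a threshold of 0.01, a replicate block, and leaving out each library. Transcript length in place of exon length was added after seeing the data.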

Additional observations from a re-analysis of the deposited data

How the results depend on the processing

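All 8 calls among the elastic fiber genes kept their direction and stayed past the threshold in each of 14 alternative fits and at an adjusted p-value under 0.01. Fbn1, near 0, changed sign without WT replicate 1 (log2 fold change 0.024) and without cKO replicate 3 (0.034), with a range from -0.101 to 0.034 over the libraries left out, and was not called in any fit; nor was Fbn2. The difference of the Fbn2 to Fbn1 log2 ratio ranged from -0.163 to 0.0048 when libraries were left out. All tested genes called numbered 6723 in the main fit and 5535 under DESeq2. With 1 library left out, calls numbered 7054 without cKO replicate 2 and 5532 to 5866 otherwise. Companion calls ranged from 18 to 27; of 420 values of named companion genes, 30 lost their call, 5 gained one and 4 changed sign, 31 of these by leaving out a library. The sign changes were of Loxl2, at -0.007 under upper-quartile scaling, -0.005 with no filter, and from -0.05 to 0.043 with libraries left out. Without cKO replicate 2, Ltbp1 was 0.152, Loxl3 -0.119 (call lost) and Mmp9 -0.51, and Atp7a, Neu1 and Ctsa were called. Slc31a1 was called without cKO replicate 3. Leaving out any other 1 library ended the call of Mmp9. Libraries of the same replicate number showed weak correlations of deviations (-0.0243, 0.0353 and 0.0928). These do not settle whether libraries were handled in pairs. With the replicate block, 8 members, 26 companion genes and 6908 genes in all were called. The SE of Eln then went from 0.106 to 0.0785 and that of Efemp2 from 0.0477 to 0.0486.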
